A study of Homo sapiens with 16 samples.

Results

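The clustered histone genes are those whose symbol starts with HIST1H, HIST2H, HIST3H or HIST4H. There were 73 of them among the 23340 gene symbols measured in CCLP1, an established line of human cholangiocarcinoma cells, from a tumour of the intrahepatic bile ducts. They comprised 6 H1, 18 H2A, 20 H2B, 14 H3 and 15 H4 genes, of which 56 belong to the HIST1 locus, 13 to HIST2, 3 to HIST3 and 1 to HIST4. The series holds 16 libraries of polyadenylated RNA in 8 groups of 2, from 3 experiments that were scaled separately and are compared only within themselves. In the first, clones of cells with a short hairpin RNA (shRNA) against HHEX, the gene of the homeodomain transcription factor PRH, were set against clones with a non-targeting control shRNA. In the second, cells given an adenovirus that carries myc-tagged PRH were set against cells given an empty adenovirus, with no shRNA in either group. In the third, cells with an shRNA against NOTCH3, a Notch receptor, and cells with the control shRNA each received the PRH virus or the empty virus. The libraries of a group are separate clones in the first experiment and separate infections in the others, all of a single cell line.

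Clustered histone genes supply the core histones H2A, H2B, H3 and H4 and the linker histone H1 that package newly replicated DNA, and they are transcribed mainly in S phase under the coactivator NPAT. Their mRNAs are the known exception among animal messages in that most end not in a poly(A) tail but in a conserved stem-loop, which is bound by SLBP and cut by a complex that includes the U7 small nuclear RNA and symplekin. Some clustered genes also give polyadenylated transcripts, in particular in cells that leave the cycle or differentiate. Because these libraries were made from polyadenylated RNA, the counts describe the histone RNA that was carried through that selection and not the S phase pool as a whole.

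The stem-loop is shown here because it is the known alternative to the poly(A) tail on which these libraries were selected. It was searched by name, as the 16-base histone stem-loop with its known alternative bases, on the sense strand of the GENCODE 29 transcripts. A match was found in 30 of the 73 histone genes, against 40 of all 57133 gene names (0.0700%), and 2 of the other 10 were clustered histone symbols not in the tables. In 21 of the 30 an annotated transcript ran on for at least 100 bases past the match. Many annotated histone transcripts hold little beyond the coding part, so a gene without a match says only that these letters are not in its annotated transcripts. The sites of genes on which the results turn are given below, 5′ to 3′ with 5 bases on either side and the stem-loop in capitals.
HIST1H2AC: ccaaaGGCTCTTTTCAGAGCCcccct
HIST1H2BD: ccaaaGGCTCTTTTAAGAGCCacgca
HIST1H2BG: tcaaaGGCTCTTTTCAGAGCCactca
HIST1H3E: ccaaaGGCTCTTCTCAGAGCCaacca
HIST1H3H: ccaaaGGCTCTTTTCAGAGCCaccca
HIST2H2BE: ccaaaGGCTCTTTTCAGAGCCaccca
HIST3H2A: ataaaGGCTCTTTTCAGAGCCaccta
HIST4H4: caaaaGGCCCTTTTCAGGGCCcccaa

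The most frequent form of the stem-loop, that of HIST1H2AC, was shared by 17 of the 30 genes. HIST1H2BD has an annotated transcript of 496 bases that stops 39 bases after the match, and its longest annotated transcript, of 789 bases, holds no match. In HIST2H2BE the transcript of 2194 bases continued for 1729 bases past the site, and in HIST3H2A the transcript of 895 bases continued for 390 bases. The annotated HIST1H2BK transcript has 381 bases and holds no match.

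Promoters are shown for 3 genes that were lower with the PRH virus, HIST1H2BK, HIST1H2BD and HIST1H3B. RefSeq (GRCh38.p14) gave a promoter for 65 of the 73 genes, from 250 bases before to 50 after the first listed start, and the first listed start of 27305 gene symbols served for comparison. The motifs were TATAAA (letters of the TATA box), CCAAT, the octamer ATTTGCAT known from H2B genes and AAACACAAA known from H1 genes. The E2F forms TTTCGCGC and TTTGGCGC were searched as well. Each was counted on both strands and at any position of the window. The 250 bases before the start are given on the gene's strand with matches in capitals; neighbouring or overlapping matches merge into a single run of capitals, as between CCAAT and TTTCGCGC on the reverse strand in HIST1H2BK. The build is not the hg19 build of the counts, and the positions serve only to place the sequences: HIST1H2BK at chr6:27146859-27147108 on the minus strand, HIST1H2BD at chr6:26157871-26158120 on the plus strand and HIST1H3B at chr6:26032100-26032349 on the minus strand.
HIST1H2BK: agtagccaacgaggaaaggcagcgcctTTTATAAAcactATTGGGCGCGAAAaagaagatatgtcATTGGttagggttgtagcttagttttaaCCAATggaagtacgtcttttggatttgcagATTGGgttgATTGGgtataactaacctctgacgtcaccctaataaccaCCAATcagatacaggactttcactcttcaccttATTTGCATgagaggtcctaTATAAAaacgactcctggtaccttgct
HIST1H2BD: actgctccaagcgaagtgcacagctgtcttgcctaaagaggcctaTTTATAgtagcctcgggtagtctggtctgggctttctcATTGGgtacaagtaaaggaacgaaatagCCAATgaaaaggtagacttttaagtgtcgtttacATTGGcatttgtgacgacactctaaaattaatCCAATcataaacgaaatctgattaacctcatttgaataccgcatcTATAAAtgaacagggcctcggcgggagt
HIST1H3B: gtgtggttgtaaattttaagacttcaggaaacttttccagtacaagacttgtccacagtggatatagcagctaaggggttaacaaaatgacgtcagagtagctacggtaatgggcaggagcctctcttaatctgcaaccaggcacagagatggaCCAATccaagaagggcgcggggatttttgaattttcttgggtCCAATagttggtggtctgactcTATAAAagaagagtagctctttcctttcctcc

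TATAAA was present in 43 of the 65 histone promoters, a share of 66.2% against 11.95% of all promoters. With no rule on position or strand, a match need not be a TATA box. CCAAT was present in 55 of the 65 (84.6%, against 35.7% of all), and was found in every promoter of the 6 H1, 16 H2A, 18 H2B and 12 H3 genes but in 3 of the 13 of H4 genes. The octamer was present in 26 (40.0%, against 1.80%), of which 14 were H2B, 11 H2A and 1 H3 genes. The H3 gene was HIST1H3D, whose window is identical to that of the H2A gene HIST1H2AD, so this window counts for both. TTTCGCGC was present in 12 (18.5%, against 0.546%), AAACACAAA in 3, all H1 genes (4.62%, against 0.637%), and TTTGGCGC in none (against 0.659% of all). H2A and H2B genes often stand in divergent pairs, so that some windows overlap. A match is a description of letters, not of a bound site.

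Depth and labels were checked over the whole series first. The libraries held 20795552 to 69899040 reads in genes, of which 5744 to 40830 fell on the clustered histone genes. HHEX stood at 314 and 326 normalised counts in PRH shRNA clones, against 580.1 and 554 in control clones. HHEX did not pass limma's test there (log2 fold change −0.82 ± 0.49 SE, adjusted p = 0.9999). It was raised by 7.87 to 8.70 on the log2 scale by the PRH virus in the 3 settings where that virus was given. With the PRH virus, HHEX reached 71911 and 46576 in the libraries labelled NOTCH3 shRNA, against 228980 and 330421 in control shRNA libraries. NOTCH3 went against its label with the empty virus, at 655 and 1018 in the libraries labelled NOTCH3 shRNA, against 711 and 838 in control shRNA libraries (log2 fold change 0.08 ± 0.24 SE, adjusted p = 0.798, limma). With the PRH virus NOTCH3 was lower, at 761 and 1086 in the libraries labelled NOTCH3 shRNA, against 2295 and 2488 in control shRNA libraries (−1.39 ± 0.24, adjusted p = 0.00118). KRT19, a keratin of bile duct cells, was at 51370 to 63763 in the 4 libraries labelled NOTCH3 shRNA, against 0.852 to 55.4 in the 4 control shRNA libraries of the same experiment. EPCAM, an epithelial adhesion molecule, was at 23795 to 34253, against 3.86 to 28.3 in those control shRNA libraries. In the first experiment KRT19 was at 3715 and 16365 in PRH shRNA clones, against 437 and 654 in control clones. The libraries labelled NOTCH3 shRNA thus stand apart from the control shRNA libraries in far more than NOTCH3, and their part in the histone results was not tested.

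Of the 73 histone genes, 40 reached 10 normalised counts in 2 or more libraries, the filter for testing, in the first experiment, 29 in the second and 49 in the third. A further 18, 29 and 13 were detected below that filter, and 15, 15 and 11 had no counted read in any library of the experiment. A normalised count is a read count divided by 1 size factor per library, without correction for gene length. A gene could pass the filter through the group in which it was high, so counts and medians over the tested genes are descriptions. The same 6 genes held the highest normalised counts in each experiment, namely HIST1H2BK, HIST1H1C, HIST2H2BE, HIST1H2BD, HIST1H2AC and HIST3H2A, and made up 80.6% to 87.9% of the histone sum of a library. The first 5 of them belong to the list of 6 clustered genes known to give polyadenylated transcripts, together with HIST1H2BJ. H3 and H4 genes gave few counts: in control shRNA cells with the empty virus, the 14 H3 genes summed to 1561 and 1176 normalised counts and the 15 H4 genes to 727 and 570.3, beside 26565 and 18185 for the 20 H2B genes.

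The histone sum as a share of all normalised counts was small in every library. It was 0.0170% and 0.0221% in the libraries labelled NOTCH3 shRNA and given the PRH virus, and 0.0278% and 0.0344% in those with the empty virus. In control shRNA cells it was 0.0299% and 0.0246% with the PRH virus, against 0.0700% and 0.0497% with the empty virus, a ratio of means of 0.455. Without an shRNA it was 0.0313% and 0.0205% with the PRH virus, against 0.0508% and 0.0273% with the empty virus, and the groups overlapped. In the PRH shRNA clones it was 0.0193% and 0.0268%, against 0.0173% and 0.0246% in control clones. With 2 libraries in each group, an exact two-sided permutation test of such a share cannot go below 0.333, the value reached in both virus comparisons of the third experiment. In bulk RNA, fewer cells that express histone genes and less histone RNA per cell cannot be told apart.

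**Figure D1:**
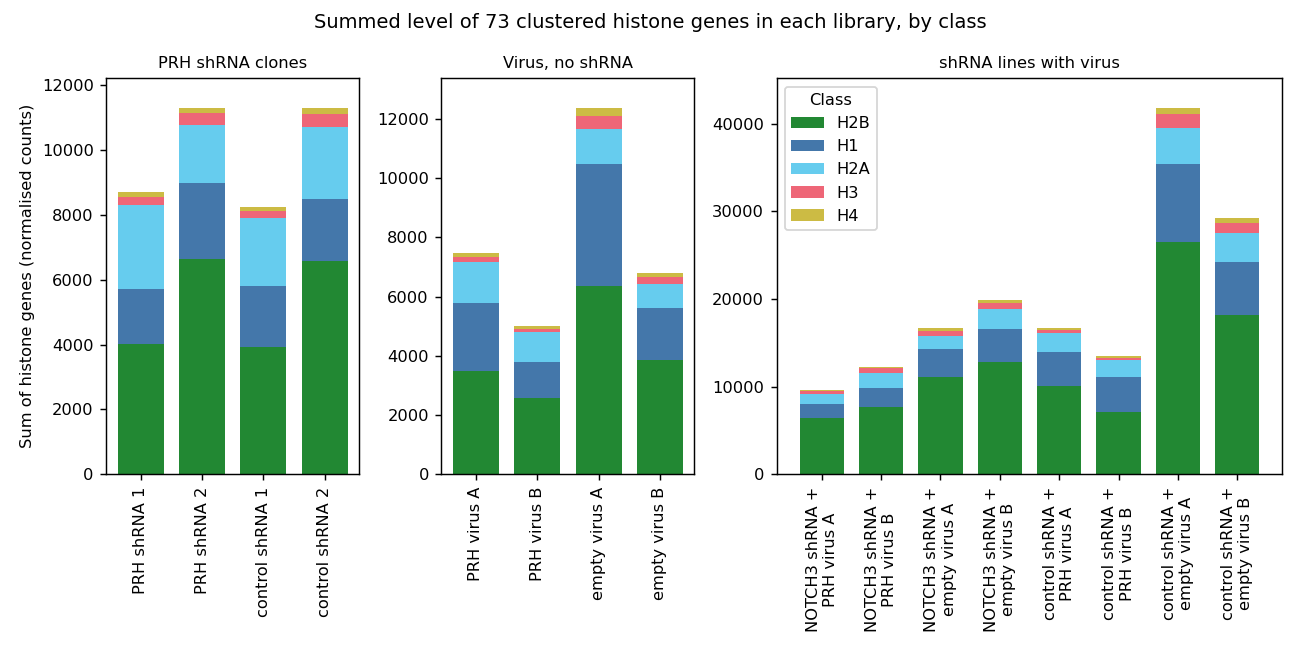
Summed normalised counts of the 73 clustered histone genes in each library, a bar for each library with the histone classes stacked, in the 3 experiments on their own linear axes. In the third experiment the control shRNA libraries with the empty virus stand above the other 6, and H2B genes form the largest share of every bar.

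Histone genes were first compared between PRH shRNA and control shRNA clones, to see whether they move when PRH is lowered. None of the 40 tested genes passed limma's test in either direction, and none had an unadjusted p under 0.05. HHEX, the target of the shRNA, did not pass either, so the absence of calls says little. The background was 0% of 14511 genes called higher and 0% called lower. With the clone number as a replicate block 10 genes were called over all genes, and 51 to 607 in the fits that left out a clone, whereas no histone gene was called in any of these fits. The median log2 fold change was 0.08 over the histone genes and −0.07 over all genes tested, and the sign of the histone median turned with no filter (−0.02) and without control clone 1 (−0.10). HIST1H2BK, an H2B gene and the gene with the highest count, had 1992 and 4223 normalised counts in PRH shRNA clones 1 and 2, against 2043 and 4267 in control clones 1 and 2. The pair of clones with the number 1 was low and the pair with the number 2 high in both groups, and the groups overlapped. HIST1H2BD stood at 651 and 739.6 in PRH shRNA clones, against 642 and 643 in control clones, a small difference that did not pass.

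The 4 histone genes with the smallest unadjusted p were all of low count. HIST1H4C, an H4 gene, had 10.1 and 16.8 normalised counts in PRH shRNA clones, against 2.93 and 1.91 in control clones (log2 fold change 2.06 ± 0.88 SE, adjusted p = 0.852, limma with Benjamini-Hochberg adjustment). HIST1H2AL had 24.6 and 9.90 in PRH shRNA clones, against 35.8 and 35.3 in control clones. HIST4H4 had 7.23 and 6.93, against 10.2 and 19.1 in control clones. HIST1H2AJ had 31.8 and 13.9, against 13.9 and 8.59 in control clones. The first 3 of these genes did not overlap between the groups, which carries no weight in genes picked for a small p. Of the 40 tested histone genes, 5 were higher and 4 lower without overlap, against 1781 and 1702 of 14511 genes. None of the differences in the 4 genes exceeded what the test allows for the spread between clones.

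The PRH virus without an shRNA asks the reverse question. Of 29 histone genes tested, 4 fell and 1 rose, against 5.73% of 13263 genes called lower and 9.9% called higher. The median log2 fold change was −0.83 over the histone genes and −0.01 over all genes tested. Below 0 lay 24 of the 29, against 6771 of 13263 over all genes. Without empty virus library A the histone median was −0.44. Both PRH virus libraries were below both empty virus libraries for 16 of the 29, against 29.5% of all genes tested. By class, 2 of 6 H3 genes and 2 of 13 H2B genes fell and 1 of 8 H2A genes rose, while the single H1 and the single H4 gene tested did not pass.

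HIST1H3E, which encodes a replication-dependent H3, had 13.3 and 11.3 normalised counts in PRH virus libraries, against 46.8 and 42.1 in empty virus libraries (log2 fold change −1.78 ± 0.37 SE, adjusted p = 0.0231, limma). HIST1H3D, another H3 gene, had 31.0 and 21.7, against 105 and 60.9 with the empty virus (−1.59 ± 0.38, adjusted p = 0.0350). HIST1H2BH, an H2B gene, had 18.6 and 20.0, against 59.7 and 51.0 with the empty virus (−1.47 ± 0.33, adjusted p = 0.0292). These 3 genes were low in both PRH virus libraries, with no overlap. The call held in 2 of 4 fits without a library for HIST1H3E, in 3 for HIST1H3D and in 1 for HIST1H2BH. That of HIST1H2BH was lost without PRH virus library A (adjusted p = 0.0715). With empty virus library A left out, all 3 genes lost their calls (adjusted p = 0.0918 for HIST1H3E, 0.154 for HIST1H3D and 0.120 for HIST1H2BH). Without empty virus library B the adjusted p was 0.0627 for HIST1H3E and 0.0650 for HIST1H2BH. HIST1H2BK fell by the smallest fold of the 4, with 1805 and 1482 in PRH virus libraries, against 3888 and 2315 in empty virus libraries (−0.87 ± 0.24, adjusted p = 0.0495). Empty virus library A was high for HIST1H2BK, and without it the fold change was −0.50 with an adjusted p of 0.0822. HIST1H2BD had 444 and 291 with the PRH virus, against 1046 and 588 with the empty virus, and just missed the threshold (−1.12 ± 0.31, adjusted p = 0.0512).

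HIST3H2A, the H2A gene of the HIST3 locus, went the other way. It had 805 and 589 normalised counts in PRH virus libraries, against 351 and 305 in empty virus libraries (log2 fold change 1.07 ± 0.19 SE, adjusted p = 0.0132, limma), and was called without each library in turn. Among the highest genes, HIST2H2BE had 662 and 398 with the PRH virus, against 648 and 393 with the empty virus (0.02 ± 0.31), and HIST1H2AC had 397 and 257, against 482 and 249 with the empty virus (−0.12 ± 0.34). In both genes library A was the higher of its group with either virus, and the groups overlapped. The count of 4 lower genes rested on single libraries: without empty virus library A no histone gene was called lower, and without PRH virus library A 11 were.

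The same virus in control shRNA cells gave the largest number of lower histone genes. Of 49 tested, 19 fell and none rose in limma's test, against 11.8% of 15836 genes called lower and 15.2% called higher, and 26 (53.1%) had an unadjusted p under 0.05, against 38.1% of all genes tested. edgeR's quasi-likelihood test and DESeq2 on the recovered reads called 19 and 20 lower and none higher. The median log2 fold change was −1.78 over the histone genes and 0.00 over all genes tested. Below 0 lay 46 of the 49, against 7554 of 15836 over all genes. Both PRH virus libraries were below both empty virus libraries for 37 of the 49, against 30.3% of all genes tested. The fall reached every class, with 1 of 4 H1, 5 of 11 H2A, 5 of 16 H2B, 6 of 10 H3 and 2 of 8 H4 genes called lower.

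The H3 genes had a median log2 fold change of −2.55, the lowest of the 5 classes. HIST1H3J had no read in either PRH virus library, against 30.7 and 29.4 normalised counts with the empty virus, and was at least 11.03-fold lower, from a floor of 3 counts in each library. HIST1H3B had 17.0 and 24.1 with the PRH virus, against 300.3 and 207 with the empty virus (log2 fold change −3.56 ± 0.54 SE, adjusted p = 0.00144, limma). HIST1H3D had 49.4 and 58.0 with the PRH virus, against 383 and 347 with the empty virus (−2.75 ± 0.52, adjusted p = 0.00468). HIST1H3H had 105 and 85.0 with the PRH virus, against 331 and 319 with the empty virus (−1.77 ± 0.36, adjusted p = 0.00659). All of these H3 genes were low in both PRH virus libraries and far from overlapping. HIST1H3E and HIST1H2BH, both lower with the PRH virus in cells without an shRNA, fell here too, by 2.53 ± 0.61 and 2.56 ± 0.57 on the log2 scale. Their calls did not hold without control shRNA library B with the PRH virus (adjusted p = 0.0889 and 0.0607) or library A with the empty virus (adjusted p = 0.112 and 0.0742).

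Among the nucleosome's other core histones, HIST1H2BD changed with the smallest adjusted p of all histone genes. It had 555 and 475 normalised counts with the PRH virus, against 4013 and 2599 with the empty virus (log2 fold change −2.65 ± 0.25 SE, adjusted p = 0.000121, limma). HIST1H2BK had 7216 and 4959, against 17212 and 12376 with the empty virus (−1.29 ± 0.19, adjusted p = 0.00124). HIST1H2BG had 106 and 80.2, against 471 and 284 with the empty virus (−1.97 ± 0.41, adjusted p = 0.00767). HIST1H2BD, HIST1H2BK and HIST1H2BG thus separated without overlap, with empty virus library A the highest in each. Of the 16 H2B genes tested, 12 were below the empty virus libraries without overlap and 1 was above. HIST1H2AE, an H2A gene, had 52.8 and 40.6 with the PRH virus, against 402 and 299 with the empty virus (−2.88 ± 0.42, adjusted p = 0.00116). HIST1H2AC, also H2A, had 577 and 465, against 1629.6 and 1512 with the empty virus (−1.60 ± 0.30, adjusted p = 0.00456). HIST1H1C, which encodes a linker histone, had 3894 and 3929, against 8714 and 5972 with the empty virus (−0.88 ± 0.19, adjusted p = 0.00803). Of the lower genes named so far for control shRNA cells, HIST1H2BG lost its call without PRH virus library B (adjusted p = 0.0515) or empty virus library A (0.0709), and HIST1H1C without empty virus library A (0.0656).

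Of the 6 genes listed for polyadenylated transcripts, 5 fell in control shRNA cells. The fifth was HIST2H2BE, at 1195 and 788 with the PRH virus, against 2522 and 1502 with the empty virus (log2 fold change −1.003 ± 0.32 SE, adjusted p = 0.0429, limma), a call that held in 2 of 8 fits without a library. The other gene of the list, HIST1H2BJ, had 391 and 229.9, against 645 and 351 with the empty virus (−0.66 ± 0.36, adjusted p = 0.221). The median was −1.14 over these 6 and −1.88 over the other 43 tested genes, of which 14 fell. HIST3H2A stood at 1082 and 1229 with the PRH virus, against 996 and 777 with the empty virus (0.39 ± 0.26, adjusted p = 0.322). It was high with the PRH virus without overlap, as in cells without an shRNA, but did not pass here. The count of lower genes was 11 without PRH virus library B and 8 without empty virus library A of the control shRNA cells.

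Lower genes were then counted by sequence feature. Of the 24 tested genes with an annotated stem-loop match, 11 fell (median −1.56), and of the 25 without, 8 fell (median −2.04). Among promoters in RefSeq, TATAAA was found in 12 of 18 lower genes and 16 of 26 tested genes that were not called. CCAAT was found in 16 of 18 and 22 of 26, the octamer in 8 of 18 and 11 of 26, and TTTCGCGC in 3 of 18 and 9 of 26. The lower genes with the octamer include HIST1H3D, by the window it shares with HIST1H2AD. These counts carry no test.

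**Figure D2:**
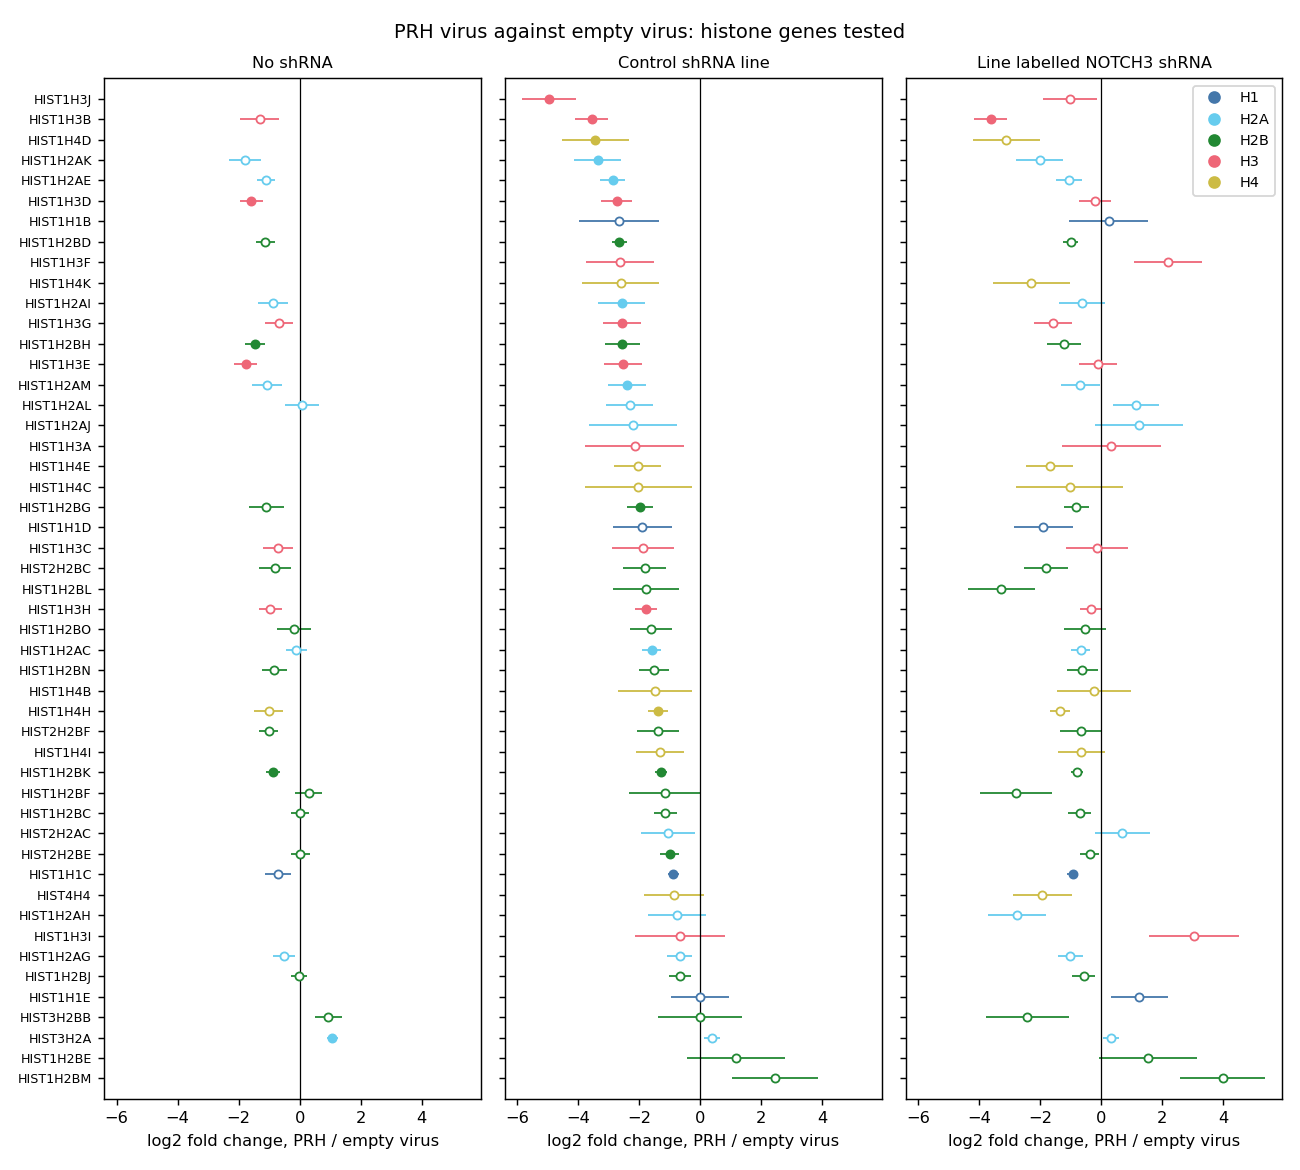
Log2 fold change (PRH virus over empty virus, with SE) of each histone gene tested, ordered by its value in control shRNA cells, in cells without an shRNA (left), control shRNA cells (middle) and cells labelled NOTCH3 shRNA (right). Filled points passed limma's test at an adjusted p under 0.05, and the colours mark histone classes. In the middle panel 46 of 49 points lie left of 0 and 19 are filled, against 24 of 29 left of 0 in the left panel.

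The 2 experiments with the PRH virus outside the cells labelled NOTCH3 shRNA used separate libraries. Their fold changes, each taken within its own experiment, can be set side by side. Of the 29 histone genes tested in both, 24 lay below 0 in both. The 4 genes called lower without an shRNA were all called lower in control shRNA cells, 100% of the shorter list and 21.1% of the 19 in the longer. Across these 29 genes the log2 fold changes gave a Pearson r of 0.788 and a Spearman rho of 0.756. This is a description only, since genes that share libraries and reads are not independent. Agreement between the experiments was not computed over all genes, so these values do not set histone genes apart. Over all genes the virus called 5.73% lower without an shRNA and 11.8% lower in control shRNA cells. HIST1H2BD, HIST1H2AE and HIST1H3B fell in control shRNA cells and gave −1.12, −1.10 and −1.30 without passing in cells without an shRNA.

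**Figure D3:**
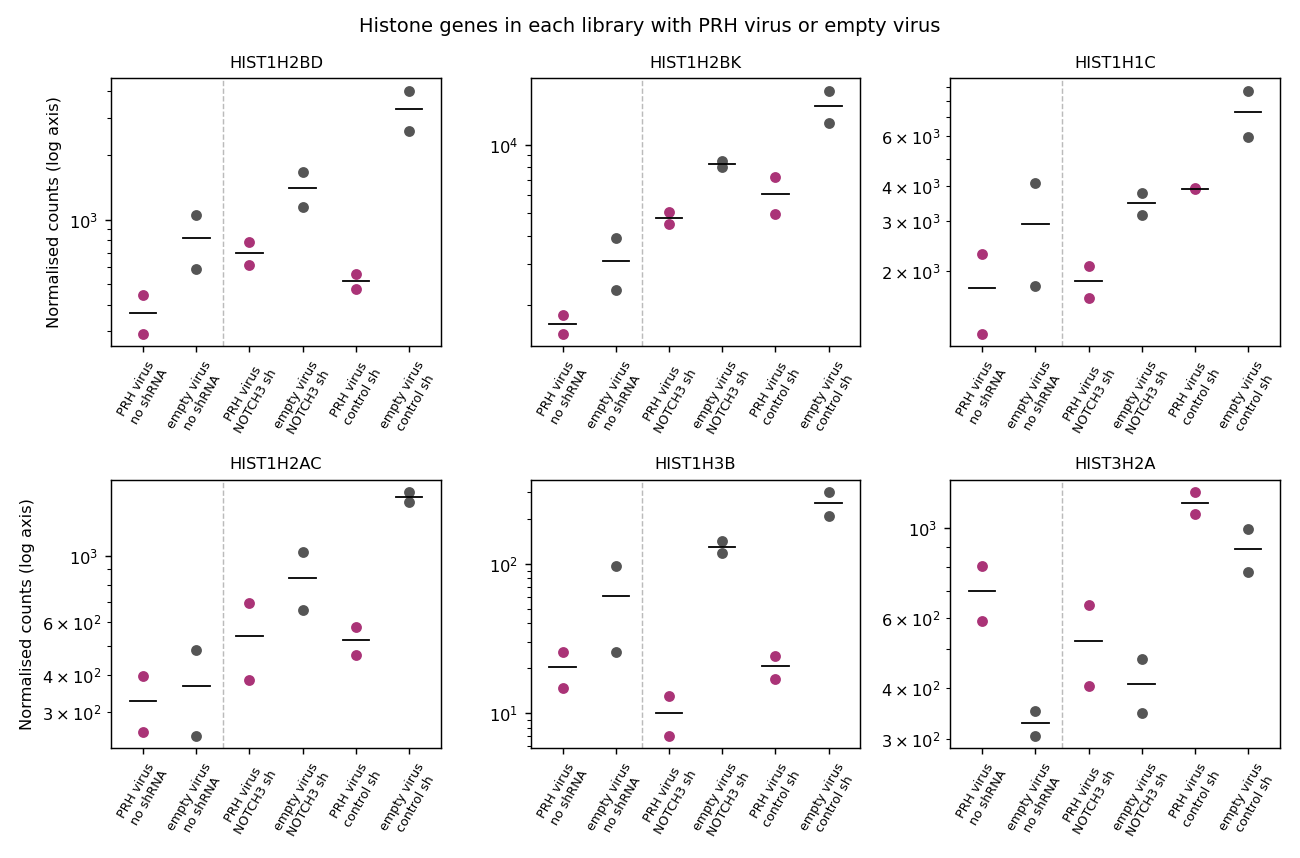
Normalised counts on a log axis of 6 histone genes in each library given the PRH virus (purple) or the empty virus (grey), with the group mean as a line; the dashed line divides the separately scaled experiments. HIST1H2BD and HIST1H2BK are lower with the PRH virus in every pair of groups and HIST1H3B in both shRNA lines, while HIST3H2A is higher with it in cells without an shRNA and in control shRNA cells, with overlap in cells labelled NOTCH3 shRNA.

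In the libraries labelled NOTCH3 shRNA the PRH virus gave fewer lower calls, both over all genes and among histone genes. In control shRNA cells 11.8% of all genes were called lower. Of 49 tested, 2 fell and none rose, against 0.309% of genes called lower and 1.9% called higher, and 15 (30.6%) had an unadjusted p under 0.05, against 17.3% of all genes tested. DESeq2 on the recovered reads called 5 lower. The median was −0.67 over the histone genes and −0.01 over all genes, and −1.06 over the histone genes without NOTCH3 shRNA library A with the empty virus. Both PRH virus libraries were below both empty virus libraries for 21 of 49, against 23.6% of all genes. HIST1H3B had 13.1 and 7.03 normalised counts with the PRH virus, against 142 and 117 with the empty virus (log2 fold change −3.61 ± 0.54 SE, adjusted p = 0.0161, limma). HIST1H1C had 1593 and 2081 with the PRH virus, against 3164 and 3779.5 with the empty virus (−0.93 ± 0.19, adjusted p = 0.0414). Both were low in both PRH virus libraries. HIST1H2BK had 4487 and 5064, against 8006 and 8445 with the empty virus (−0.79 ± 0.19, adjusted p = 0.0731), and HIST1H2BD had 615 and 783, against 1152 and 1666 with the empty virus (−0.996 ± 0.25, adjusted p = 0.0795), both without overlap but not passing. HIST3H2A had 406 and 644, against 348 and 473 with the empty virus, with overlap. No histone gene was called without NOTCH3 shRNA library A or B with the PRH virus or library A with the empty virus. There was 1 call without NOTCH3 shRNA library B with the empty virus or without either control shRNA library with the PRH virus.

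Whether the effect of the PRH virus differed between the cell lines was tested as an interaction, the change with the virus in cells labelled NOTCH3 shRNA minus that in control shRNA cells. HIST1H2BD was the only histone gene of 49 to pass, with 1.65 ± 0.35 SE on the log2 scale (adjusted p = 0.0211, limma), against 3.48% of all genes called higher and 4.91% called lower. The median was 0.99 over the histone genes and −0.01 over all genes. Above 0 lay 40 of the 49 histone genes, against 7843 of 15836 over all genes. These 40 had a less negative or more positive change in the cells labelled NOTCH3 shRNA. The histone median was 0.69 without control shRNA library A with the empty virus, and 0.69 without control shRNA library B with the PRH virus. With the PRH virus 11 of the 49 changes lay above 0 in those cells, against 3 in control shRNA cells. Among H3 genes, HIST1H3D gave 2.55 ± 0.74 (adjusted p = 0.0670) and HIST1H3E 2.44 ± 0.87 (0.126). HIST1H3B gave −0.06 ± 0.76 and HIST1H1C −0.04 ± 0.26, neither passing the test. The call of HIST1H2BD held in 3 of 8 fits without a library. It was lost without either NOTCH3 shRNA library with the PRH virus (adjusted p = 0.0525 for A and 0.111 for B) or library A with the empty virus (0.0747), and without control shRNA library B with the PRH virus (0.0806) or A with the empty virus (0.0831). Without NOTCH3 shRNA library B with the empty virus, 2 histone genes were called. The lower HHEX level in the libraries labelled NOTCH3 shRNA and given the PRH virus moves with this difference, and its part was not tested.

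**Figure D4:**
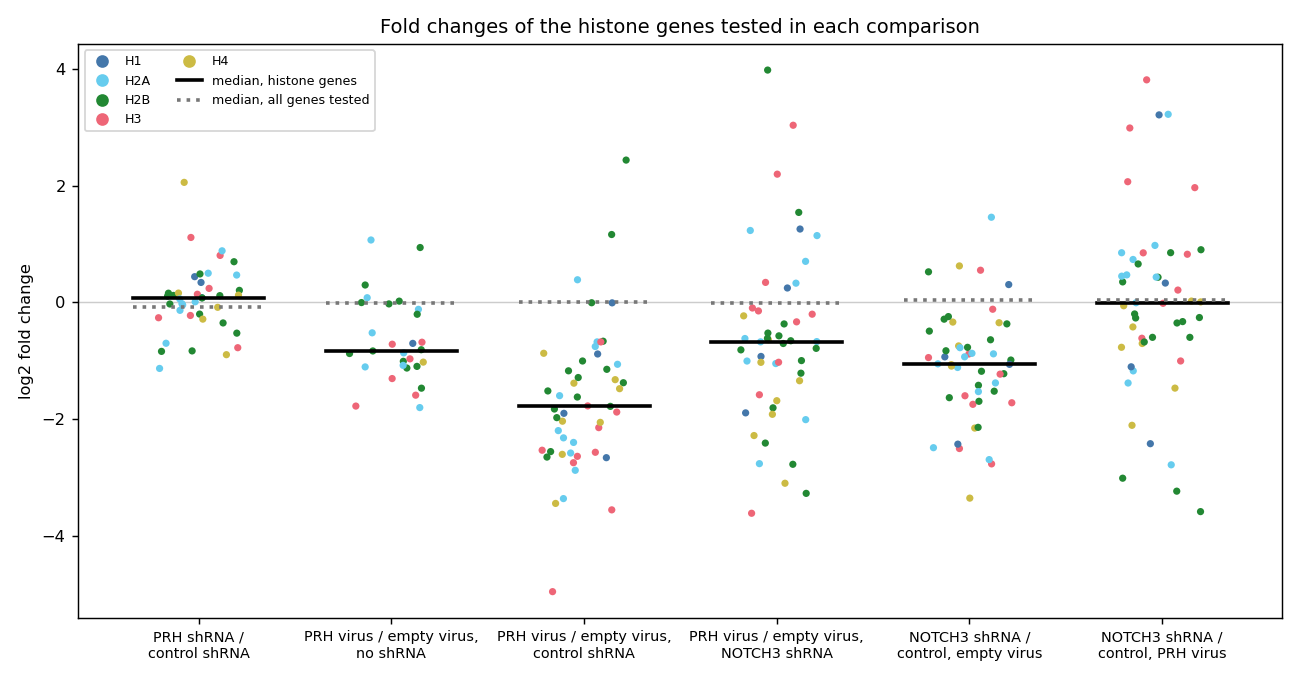
Log2 fold changes of all tested histone genes in the 6 comparisons of groups, a point for each gene coloured by class and spread sideways for legibility, with the median of the histone genes (solid) and of all genes tested (dotted). The median of the histone genes lies lowest, at −1.78, for the PRH virus in control shRNA cells, and at 0.08 for PRH shRNA and −0.01 for NOTCH3 shRNA with the PRH virus.

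The libraries labelled NOTCH3 shRNA were also compared with the control shRNA libraries under each virus. These comparisons share libraries with those above, and each is given by its own values. With the empty virus, 13 of 49 histone genes were lower and none higher in limma's test, against 23.1% of all genes called lower and 28.9% called higher, so that the lower share is near that of all genes. The median was −1.05 over the histone genes and 0.04 over all genes, or −0.987 with the genes at 0 in a group set to their bound. Both NOTCH3 shRNA libraries were below both control libraries for 28 of 49, against 35.7% of all genes. HIST1H1C had 3164 and 3779.5 normalised counts in the libraries labelled NOTCH3 shRNA, against 8714 and 5972 in control shRNA libraries (log2 fold change −1.06 ± 0.19 SE, adjusted p = 0.00112). HIST1H2BD had 1152 and 1666, against 4013 and 2599 in control shRNA libraries (−1.22 ± 0.25, adjusted p = 0.00265). HIST3H2A had 348 and 473, against 996 and 777 in control shRNA libraries (−1.11 ± 0.26, adjusted p = 0.00583). None of these overlapped. Of the polyadenylated list, 5 of 6 genes were lower. The remaining 7 of the 10 lower genes with the smallest adjusted p were HIST1H2BK, HIST1H2BG, HIST1H3H, HIST1H3D, HIST1H2AE, HIST1H2AL and HIST2H2BE, with log2 fold changes of −2.49 to −0.83. Without control shRNA library A with the empty virus 2 histone genes were called lower.

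With the PRH virus, 3 of 49 histone genes were higher and 6 lower in the libraries labelled NOTCH3 shRNA, smaller shares than the 26.1% and 21.1% of all genes called higher and lower. The histone median of −0.01 had no stable sign, with 0.34 without NOTCH3 shRNA library A, −0.41 without library B and −0.46 without control shRNA library B, all with the PRH virus, and 0.04 and 0.05 by edgeR and DESeq2, beside 0.04 over all genes. HIST1H3E had 125 and 168 normalised counts in the libraries labelled NOTCH3 shRNA, against 23.8 and 12.6 in control shRNA libraries (log2 fold change 2.99 ± 0.61 SE, adjusted p = 0.00332, limma). HIST1H3J had 12.2 and 14.1, against 0 in both control shRNA libraries, at least 4.82-fold higher by the same floor. HIST2H2AC, an H2A gene of the HIST2 locus, had 42.7 and 75.0, against 11.9 and 1.93 in control shRNA libraries (3.23 ± 0.89, adjusted p = 0.0147). HIST1H1C had 1593 and 2081, against 3894 and 3929 in control shRNA libraries (−1.10 ± 0.19, adjusted p = 0.00113). HIST3H2A had 406 and 644, against 1082 and 1229 in control shRNA libraries (−1.17 ± 0.26, adjusted p = 0.00525). HIST1H2AG had 100.1 and 87.9, against 318 and 190.3 in control shRNA libraries (−1.38 ± 0.40, adjusted p = 0.0188). The other 3 lower genes were HIST1H2AH, HIST1H2BF and HIST1H2BL, each at 18.3 or less in the libraries labelled NOTCH3 shRNA and at 0 in library B. HIST1H1C and HIST3H2A were low and HIST1H3E and HIST1H3J high in every fit without a library. The call held in 5 of 8 such fits for HIST1H2AG, 3 for HIST1H2AH, 2 for HIST1H2BL and 1 for HIST1H2BF. HIST1H2AG lost it without either NOTCH3 shRNA library (adjusted p = 0.0587 for A and 0.0903 for B) or control shRNA library A with the PRH virus (0.131). The other 3 each lost it in at least 5 fits, among them those without NOTCH3 shRNA library B and both control shRNA libraries with the PRH virus, while HIST2H2AC lost its call without NOTCH3 shRNA library B (adjusted p = 0.0872) or control shRNA library B with the PRH virus (0.0994). The count of lower genes was 2 without NOTCH3 shRNA library B or control shRNA library A with the PRH virus, and 3 without either control shRNA library with the empty virus.

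Genes that work with the clustered histones were counted beside them, from lists drawn up with earlier results known. Replication-independent histones are made throughout the cell cycle from polyadenylated mRNA. In control shRNA cells 3 of 11 fell and 1 rose with the PRH virus, against 11.8% and 15.2% of all genes, with H3F3B, a gene of the replacement histone H3, at 20749 and 20564 normalised counts with the PRH virus, against 34200.3 and 33524 with the empty virus (log2 fold change −0.71 ± 0.07 SE, adjusted p = 0.000209, limma). H2AFY, which encodes macroH2A, had 7747 and 8016, against 5902 and 5209 with the empty virus (0.51 ± 0.09, adjusted p = 0.00403). Without an shRNA, H3F3B also fell (−0.57 ± 0.12, adjusted p = 0.0205) and H1F0, the linker histone of resting cells, rose (0.41 ± 0.10, adjusted p = 0.0384).

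Genes of DNA replication were counted as markers of S phase. Of 25 S phase genes, 6 rose and 1 fell with the PRH virus in control shRNA cells, against 15.2% and 11.8% of all genes. None passed in cells without an shRNA, where 5 of 25 had an unadjusted p under 0.05, against 30.8% of all genes. MCM6, a subunit of the replicative helicase, had 9108 and 9559 normalised counts with the PRH virus, against 6194 and 6462 with the empty virus (log2 fold change 0.56 ± 0.09 SE, adjusted p = 0.00251, limma). MCM2, another subunit, gave 0.47 ± 0.10 (adjusted p = 0.00909) and FEN1, the flap endonuclease, −0.35 ± 0.09 (0.0183). Of 28 genes for histone mRNA transcription and 3′ end processing, 3 rose and 6 fell in control shRNA cells, against the same 15.2% and 11.8%, and 39.3% had an unadjusted p under 0.05, against 38.1% of all genes. SLBP, the stem-loop binding protein, had 12301 and 13282 with the PRH virus, against 8679.7 and 9306 with the empty virus (0.51 ± 0.09, adjusted p = 0.00383). CCNE1, cyclin E, which activates NPAT through CDK2, gave 0.57 ± 0.16 (adjusted p = 0.0291), and SYMPK, which encodes symplekin, −0.55 ± 0.08 (0.00137).

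Of 18 histone chaperone genes, 3 fell and none rose with the PRH virus in control shRNA cells, a share of lower genes near the 11.8% of all genes. ASF1A, a chaperone that hands H3 and H4 to the assembly factors, had 611 and 581 normalised counts with the PRH virus, against 1607 and 1634 with the empty virus (log2 fold change −1.44 ± 0.12 SE, adjusted p = 7.1e-05, limma). Without an shRNA, ASF1A had 268 and 258, against 692 and 549 with the empty virus (−1.23 ± 0.17, adjusted p = 0.00662), and was the single chaperone to pass. In the interaction ASF1A gave 1.23 ± 0.17 (adjusted p = 0.00301) and SLBP −0.50 ± 0.13 (0.0481).

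Since polyadenylated RNA was selected, other RNAs without a poly(A) tail were counted as well. Rows of small nucleolar RNAs may also hold reads of their host genes, so they need not measure untailed RNA alone. The sum of 399 small nucleolar and other such RNAs was 7915 and 5839 normalised counts in control shRNA cells with the PRH virus, against 6838 and 6213 with the empty virus, and overlapped. Of 177 tested there, 1 rose and 1 fell, far under the shares of all genes, with a median of −0.02 beside −1.78 for the histone genes. In the libraries labelled NOTCH3 shRNA and given the empty virus the sum was 14457 and 9990, against 6838 and 6213 in control shRNA libraries, and 22 of 177 were higher and 1 lower, both smaller shares than the 28.9% and 23.1% of all genes. In cells without an shRNA the sum was 2155 and 2377 with the PRH virus, against 2868 and 2753 with the empty virus, without overlap, and none of 77 passed in limma's test while 5 (6.49%) had an unadjusted p under 0.05, against 30.8% of all genes. How much of the histone signal is carried over without a tail was not tested.

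Sequence shared with other annotated genes limits what a single histone gene's count means. Of the 73 genes, 42 shared at least 1 window of 50 bases with a transcript of another gene, and in 16 more than 50% of windows were shared. A shared window can come from a near-identical copy or from an annotated gene that overlaps on the same strand. These were not told apart. HIST1H3D shared 100% and HIST1H2BK 74.1% of its windows, so the counts of both genes are uncertain. HIST1H3D overlapped 1 annotated gene on its own strand. In contrast, HIST1H3B, HIST1H2AE, HIST1H1C and HIST1H2BG shared none, and HIST1H2BD shared 5.36%, HIST1H2AC 0.421% and HIST3H2A 0.591%. Of the genes at 0 in every library, HIST2H2AA3, HIST2H3A and HIST2H3C shared 100% of their windows. HIST2H2AA4 shared 97.1%, HIST2H4A 97.5%, HIST2H4B 97.2% and HIST2H2BA 73.6%. A count of 0 in these genes does not show that their RNA was absent. HIST1H2AA, HIST1H2BA, HIST1H2APS1 and HIST1H1A, also at 0 in every library, shared none. In 17 of the 73 the gene overlapped another annotated gene, in 11 on the other strand, HIST1H2BD among them. Whether strand was used in counting is not given in the sources used here.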

How the data were processed

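RNA-seq of polyadenylated RNA from CCLP1 cells was analysed from 3 deposited tables of normalised counts. Trimming with Trim Galore, alignment with TopHat to hg19, counting with featureCounts and scaling with DESeq2 are named in the submitters' processing notes. Their versions and settings, and use of strand, were not given in the sources used here. Deposited by the authors, the values are a signal made by dividing read counts by 1 size factor per library. Whole reads were recovered by the step between low values, with a tolerance of 1e-06 reads. The 28 rows whose symbols had become dates were left out, leaving 23340 of 23368 symbols. Columns of the experiments with a virus carry no replicate number, so A and B only name libraries, and the empty virus of cells without an shRNA is headed as a GFP virus but labelled empty.

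Values were tested as log2(value + 1) with limma 3.58.1 in R 4.3.3, with an intensity trend, in genes that reached 10 normalised counts in 2 or more libraries. P-values were adjusted by Benjamini-Hochberg over all genes tested, with a threshold of 0.05. The third experiment was fitted with its 8 libraries together. A fold change on this scale understates the change of low genes. Alternatives were another pseudocount, no filter, no trend, equal totals, each comparison alone, leaving out each library, and edgeR 4.0.16 and DESeq2 1.42.0 on recovered reads. The scripts were tested on simulated data. P-values measure the spread between libraries of a single cell line. Each SE is limma's standard error, drawn from that spread. Floors cover counting error only.

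The histone genes and the other gene lists were chosen with earlier results of these data known. Genes were named where they passed the test, up to 10 for each direction and comparison, or else the 4 with the smallest unadjusted p, with the 6 of highest mean count, the list of polyadenylated genes and up to 3 for each direction of the other lists. Genes shown beyond this rule were chosen after their values were seen.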

Additional observations from a re-analysis of the deposited data

Results flagged for a closer look

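The effect of the PRH virus on HIST1H2BD passed a test of the difference between the shRNA lines, an interaction of 1.654 on the log2 scale (SE 0.35, adjusted p = 0.0211, limma). It was the only histone gene of 49 called, against 3.48% of all genes called higher. The call was lost with no intensity trend and in several fits without a library, where the interaction was 1.34 to 1.97. HIST1H2BD had 615 and 783 normalised counts with the PRH virus in the libraries labelled NOTCH3 shRNA, against 1152 and 1666 with the empty virus. In control shRNA cells it had 555 and 475 with the PRH virus, against 4013 and 2599 with the empty virus. The PRH virus libraries of both lines lie close together, and the empty virus libraries lie apart. HHEX was lower in the libraries labelled NOTCH3 shRNA than in control shRNA libraries under the PRH virus, by 2.25 on the log2 scale, and its part in the difference was not tested.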

How the results depend on the processing

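No named histone gene changed direction under the alternatives run in a comparison where it was called. The same held for the 4 genes of smallest unadjusted p for PRH shRNA. Other named genes were not checked for direction. The histone median changed sign for PRH shRNA and for NOTCH3 shRNA with the PRH virus, as given with those comparisons. The count of 19 lower genes with the PRH virus in control shRNA cells was 16 to 25 under the alternatives that kept all libraries of that comparison. Without an shRNA, the count of 4 lower genes was 1 with no filter and 2 with no intensity trend. In the libraries labelled NOTCH3 shRNA, the 2 genes lower with the PRH virus were 1 with no filter, with no intensity trend or with equal totals, 0 with the 4 libraries of the comparison alone and 5 by DESeq2. Between the lines under the PRH virus, the 6 lower genes were 3 with those 4 libraries alone and 3 by edgeR. The 1 gene of the interaction was 2 with a pseudocount of 5, 0 with no intensity trend, 2 by edgeR and 5 by DESeq2. The cause was not tested.

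Leaving out each library gave 0 to 11 lower and 1 to 1 higher genes without an shRNA, 8 to 20 lower with the PRH virus in control shRNA cells, and 0 to 2 lower in the libraries labelled NOTCH3 shRNA. Between the lines it gave 2 to 15 lower with the empty virus, and 2 to 4 higher and 2 to 6 lower with the PRH virus, and for the interaction 0 to 2 higher. The other counts, PRH shRNA included, stayed at 0. Where a group was left with 1 library, that library was assumed to vary like the others.

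Equal totals moved the median of all genes with the PRH virus in control shRNA cells to 0.10, and the median of the histone genes was −1.71. The share of calls that were higher was then 69.9%, beside 56.3%. Clones share only a number in the labels; over all genes same-numbered clones deviated together (r = 0.582 over 14511 genes), and 0 histone genes were called in either direction with the clone number as a replicate block. No paired analysis was possible in the other experiments because their columns carry no replicate number. Count tests were not run for PRH shRNA. Low counts limit most H3 and H4 genes.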

Other observations

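Tested histone genes without a read were counted in each library of the third experiment, and are given as values. Of 49 tested genes, 2 and 9 were at 0 in libraries A and B of NOTCH3 shRNA with the PRH virus, and 2 and 6 in those with the empty virus. In control shRNA cells 3 and 4 were at 0 with the PRH virus, against 0 and 3 with the empty virus. Library B had the larger number in each of the 4 groups and fewer genes detected, with 15388 to 15665 in the B libraries and 15785 to 17169 in the A libraries. Each library B was also shallower than library A of its group. Reads in genes were 47257779 to 56641204 in the B libraries and 58296577 to 69899040 in the A libraries. The part of depth was not tested, and A and B only name libraries.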
